A study of Mus musculus with 5 samples.

Results

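The CD300 receptors are a family of immunoglobulin-like surface proteins of myeloid cells, and 8 mouse genes of the family were followed here by their symbols, Cd300a, Cd300c, Cd300c2, Cd300e, Cd300lb, Cd300ld, Cd300lf and Cd300lg. All 8 were among the 55291 gene symbols counted, and all 8 passed the filter on low counts that left 17062 genes. The family was picked with earlier results of this same genotype comparison known, so the differences of its members between genotypes are given as a description and without p-values.

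RNA was sequenced from mouse bone marrow, and the labels give the cell type as monocytes. Wild-type marrow gave 3 libraries (replicates 1, 2 and 3) and Tet2-mutant marrow gave 2 (replicates 2 and 3). The Tet2 protein is an enzyme that oxidises methylcytosine, a first step in removing DNA methylation. The sources used here do not give the strain, age or sex of the mice, the Tet2 allele, how cells were isolated, or what HR in the mutant titles means. Nothing in the labels says that the libraries come from separate mice, so the p-values given for other genes measure no more than how far these samples differ among themselves, possibly for technical reasons.

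CD300 receptors bind lipids such as phosphatidylserine, phosphatidylethanolamine, ceramide and sphingomyelin, which cells show when they die or are activated. The inhibitory members, Cd300a and Cd300lf, carry tyrosine motifs (ITIMs) in long cytoplasmic tails and recruit phosphatases such as SHP-1 (gene Ptpn6). The activating members, Cd300lb, Cd300c, Cd300c2, Cd300ld and Cd300e, have short tails and signal through adaptors with ITAM motifs, chiefly DAP12 (gene Tyrobp) and the Fc receptor gamma chain (gene Fcer1g). Cd300lg is the member found on the endothelium of small vessels.

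In the GENCODE M21 annotation (GRCm38, the assembly also called mm10, which the submitters' processing notes name) 7 of the 8 members lay in a single cluster of 244.0 kb on chromosome 11, from 114890041 to 115133992. Along the chromosome came Cd300a (plus strand, 114890041 to 114904654), Cd300lb (114922781 to 114934386), Cd300c (114956116 to 114969157), Cd300ld (114982274 to 114989922), Cd300c2 (114996721 to 115001880), Cd300e (115051917 to 115062177) and Cd300lf (115116214 to 115133992), all but the first on the minus strand. Cd300lg stood apart, 12.8 Mb away on the same chromosome (102041509 to 102055620, plus strand). The annotation places 4 further genes between Cd300c2 and Cd300e, Cd300ld2, Cd300ld3, Cd300ld4 and Cd300ld5. Cd300lf lies inside Rab37, a gene of the opposite strand, with 0 shared exon bases.

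RefSeq promoter windows of 300 bases (250 before and 50 after the annotated start, GRCm38.p6) were held for the 7 clustered members. Those of the 3 members with the largest excess in the mutant libraries and of the 2 that were on average lower are printed here 5′ to 3′ on the gene's strand, because Tet2 acts on methylated cytosine and these windows show the CpG dinucleotides at the starts of these genes. Capitals mark CpG. DNA methylation was not analysed here. The windows are Cd300e at chr11:115061990-115062289 (minus strand), Cd300c2 at chr11:115001831-115002130 (minus strand) and Cd300a at chr11:114889791-114890090 (plus strand). The others are Cd300lb at chr11:114934322-114934621 and Cd300c at chr11:114960458-114960757 (both minus strand). The starts used for Cd300e, Cd300lb and Cd300c lie inside the GENCODE spans of these genes, farthest inside for Cd300c.
Cd300e: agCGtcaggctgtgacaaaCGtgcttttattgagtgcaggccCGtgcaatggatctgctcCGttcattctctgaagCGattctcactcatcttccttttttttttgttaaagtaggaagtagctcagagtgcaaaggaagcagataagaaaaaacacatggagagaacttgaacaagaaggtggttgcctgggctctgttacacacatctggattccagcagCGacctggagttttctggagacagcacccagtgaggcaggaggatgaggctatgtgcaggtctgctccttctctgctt
Cd300c2: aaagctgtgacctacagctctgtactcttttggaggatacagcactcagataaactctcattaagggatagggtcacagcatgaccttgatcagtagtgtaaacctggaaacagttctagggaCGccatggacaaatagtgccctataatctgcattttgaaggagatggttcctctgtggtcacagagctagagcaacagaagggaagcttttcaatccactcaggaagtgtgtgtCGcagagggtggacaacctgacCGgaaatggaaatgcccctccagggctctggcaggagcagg
Cd300a: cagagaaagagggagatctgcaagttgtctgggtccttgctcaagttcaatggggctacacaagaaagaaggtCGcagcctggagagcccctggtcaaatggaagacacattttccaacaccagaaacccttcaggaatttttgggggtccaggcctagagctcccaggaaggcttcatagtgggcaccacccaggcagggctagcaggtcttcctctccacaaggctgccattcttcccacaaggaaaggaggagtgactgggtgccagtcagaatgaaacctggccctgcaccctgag
Cd300lb: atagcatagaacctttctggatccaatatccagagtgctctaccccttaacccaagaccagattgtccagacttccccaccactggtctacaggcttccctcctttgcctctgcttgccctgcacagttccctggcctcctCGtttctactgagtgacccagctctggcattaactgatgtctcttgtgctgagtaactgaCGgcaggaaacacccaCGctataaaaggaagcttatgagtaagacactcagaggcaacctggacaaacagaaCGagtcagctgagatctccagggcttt
Cd300c: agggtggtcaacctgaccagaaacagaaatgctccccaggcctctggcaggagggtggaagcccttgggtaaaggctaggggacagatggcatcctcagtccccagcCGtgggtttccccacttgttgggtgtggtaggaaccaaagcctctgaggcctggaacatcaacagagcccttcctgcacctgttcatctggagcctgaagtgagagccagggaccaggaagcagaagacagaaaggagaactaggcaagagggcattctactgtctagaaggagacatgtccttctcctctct

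The windows held 6 CpG dinucleotides in Cd300e and Cd300lf, 4 in Cd300lb, 3 in Cd300c2 and Cd300ld, and 1 in Cd300a and Cd300c. The median over all 32851 RefSeq promoters was 7. As few or fewer were held by 47.9% of all promoters for 6, 38.0% for 4, 31.4% for 3 and 14.1% for 1, so Cd300e and Cd300lf lay near the middle and Cd300a and Cd300c low. Cd300a, higher in the mutant libraries, and Cd300c, on average lower, had the same count. A relation of CpG content to the differences between genotypes was not tested. The letters GAGGAA, the core that the myeloid factor PU.1 binds, were searched on both strands and occurred in 28.3% of all promoters. They matched in Cd300a, Cd300c2 and Cd300ld (1 place each) and in Cd300lf (2 places). The letters TATAAA (13.6% of promoters) matched in Cd300lb and Cd300lf, GAAA followed after any 2 bases by a second GAAA, as in sites of interferon regulatory factors (3.4%), in Cd300c and Cd300c2, TTGCNNAA, a C/EBP form (10.8%), in Cd300a, and TGANTCA, the AP-1 site (7.8%), in none of the 7. No match overlapped a match of another of these motifs. These are matches of letters in a window and not measured binding sites.

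The libraries held 17459808 to 72414875 gene counts, the fewest in Tet2-mutant replicate 2, and Pearson correlations of log2 counts-per-million values (CPM) between libraries were 0.838 to 0.984 across genes. Of all 17062 tested genes, 1801 were called higher and 755 lower in the mutant (quasi-likelihood F-test of edgeR, p adjusted by Benjamini-Hochberg under 0.05). That split was 1419 and 1837 with upper-quartile scaling, which shifted the median over all genes by -0.28 on the log2 scale, and 1181 and 2877 with scaling to total counts, which shifted it by -0.51. Leaving out 1 library moved the split further, to 616 and 6, 870 and 18, and 842 and 14 without wild-type replicates 1, 2 and 3, and to 4904 and 5958, and 3781 and 3300, without mutant replicates 2 and 3. Markers of classical monocytes were present in every library, with a summed level of 5442 to 6018 CPM in the wild type and 4547 to 8260 CPM in the mutant. Most of that sum was Chil3 in every library, at 3728 to 4266 CPM in the wild type and 2818 to 5593 CPM in the mutant. Neutrophil markers were present at a higher summed level than classical monocyte markers in every library, and erythroid, B cell and T cell markers were present too. In such bulk RNA, fewer cells of a type and less RNA per cell cannot be told apart.

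The family did not move as a block. Cd300e, Cd300c2 and Cd300a were far higher in the mutant libraries. Cd300lf, Cd300ld and Cd300lg were higher by fitted folds of 1.62, 1.87 and 1.85 without passing the threshold. Cd300lb and Cd300c were on average lower, also without passing. Calls thus numbered 3 higher and 0 lower of 8, beside 10.6% of all tested genes called higher and 4.43% called lower. No reading is drawn from that count, since the contrast was in view when the family was picked. The median log2 fold change (always mutant over wild type) was 0.90 over the 8 members and -0.07 over all tested genes. Both mutant libraries lay above all 3 wild-type libraries for 6 members and below them for 1, and the groups overlapped for 1, while 56.2% of all tested genes did not overlap (22.9% with the mutant above and 33.3% with it below). With scaling to total counts the numbers of members became 3, 2 and 3, and the shares over all tested genes were not computed for that scaling.

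**Figure D1:**
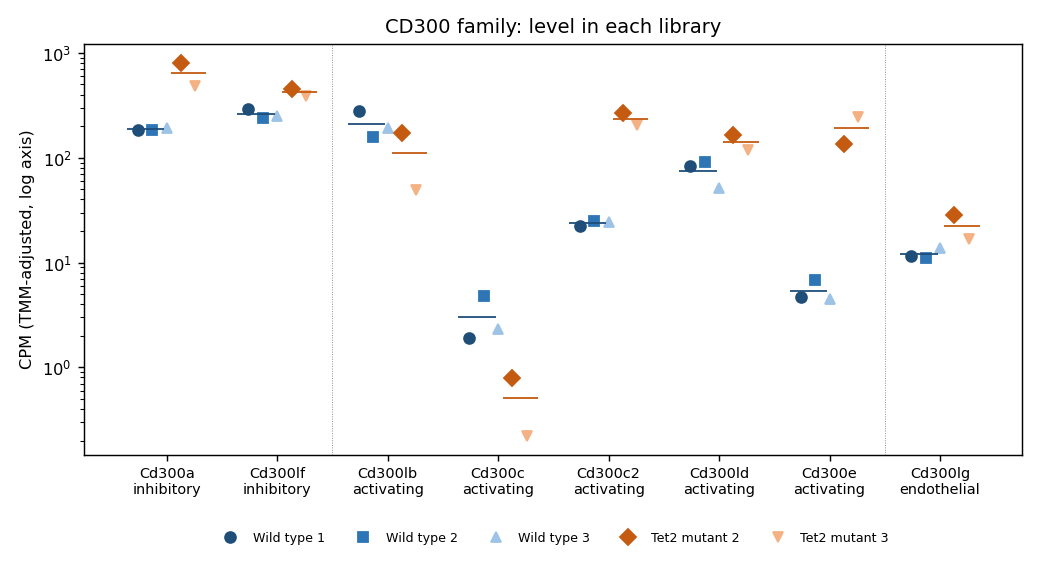
CPM on a log axis for the 8 CD300 genes in the 3 wild-type (blue) and 2 Tet2-mutant (orange) libraries, with points for libraries and short lines for group means. The mutant points of Cd300e, Cd300c2 and Cd300a stand well above the wild-type points, those of Cd300c below, and those of Cd300lb fall at 172 and 48.9 CPM beside 159 to 282 CPM in the wild type.

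Among the inhibitory receptors, Cd300a, which binds phosphatidylserine and phosphatidylethanolamine on dying cells, stood at 182, 185 and 190.4 CPM in wild-type marrow and at 808 and 484 CPM in mutant replicates 2 and 3. The wild-type libraries were nearly identical, and the lower mutant library was 2.54 times the highest wild-type one. The wild type averaged 186 ± 4.07 CPM (SD, n = 3) and the mutant 646 ± 229 CPM (SD, n = 2), a fitted difference of 3.47-fold (log2 fold change 1.80 ± 0.28 SE). Cd300lf, the receptor for ceramide and sphingomyelin that restrains mast cell and myeloid activation, was at 292, 239.6 and 251 CPM in wild-type marrow and at 454.5 and 391 CPM in the mutant. Its mutant libraries were 1.34 times or more above the highest wild-type library, and the fitted log2 fold change was 0.70 ± 0.23 SE. With scaling to total counts the Cd300lf libraries overlapped, at 341, 278 and 285 CPM against 329 and 349.9 CPM, and its log2 fold change was 0.17. Cd300lf was called in the fit without Tet2-mutant replicate 3, where the log2 fold change was 0.80. The 2 inhibitory genes thus changed places in CPM, with 1.60, 1.29 and 1.32 times as many Cd300lf as Cd300a counts in the wild type and 0.563 and 0.808 times as many in the mutant.

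Cd300e, an activating receptor that pairs with DAP12 and is known from monocytes, showed the largest difference of the family. It was at 4.64, 6.81 and 4.44 CPM in wild-type marrow and at 136 and 247 CPM in mutant replicates 2 and 3. The lower mutant library was 20.0 times the highest wild-type library, and the fitted difference was 36.1-fold (log2 fold change 5.18 ± 0.39 SE). Cd300e was also the single member with more CPM in Tet2-mutant replicate 3 than in replicate 2, by 1.82 times, against ratios of replicate 2 over replicate 3 between 1.16 and 3.58 for the other 7.

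Cd300c2, an activating receptor that pairs with DAP12 and the Fc receptor gamma chain, was at 22.2, 24.8 and 24.45 CPM in wild-type marrow and at 266 and 203 CPM in the mutant. The libraries of each genotype lay close together and far from the other genotype, with means of 23.8 ± 1.41 CPM (SD, n = 3) and 234 ± 44.1 CPM (SD, n = 2). The fitted difference was 9.84-fold (log2 fold change 3.30 ± 0.25 SE). Cd300ld, which pairs with the Fc receptor gamma chain and is the neighbour of Cd300c2 in the cluster, was at 83.8, 91.6 and 50.9 CPM in wild-type marrow and at 164 and 118 CPM in the mutant. Its fitted log2 fold change was 0.90 ± 0.32 SE. Scaling to total counts brought the Cd300ld libraries into overlap (97.8, 106.2 and 58.0 CPM against 119 and 106.0 CPM), with a log2 fold change of 0.36. Cd300ld was called in the fit without Tet2-mutant replicate 3, at a log2 fold change of 1.12. The wild type had 3.77, 3.69 and 2.08 times as many Cd300ld as Cd300c2 counts, and the mutant libraries had 0.618 and 0.582 times as many.

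Cd300lb, the activating receptor that signals through DAP12, went the other way on average. It was at 282, 159 and 190.2 CPM in wild-type marrow and at 172 and 48.9 CPM in the mutant, so Tet2-mutant replicate 2 lay within the wild-type range and replicate 3 below it. The wild type averaged 210.3 ± 63.8 CPM (SD, n = 3) and the mutant 110.3 ± 86.9 CPM (SD, n = 2), with a fitted log2 fold change of -0.93 ± 0.53 SE. That value rested on the mutant libraries, being -2.11 without Tet2-mutant replicate 2, where Cd300lb was called, and -0.30 without replicate 3. Scaled to total counts, both mutant libraries were below the wild type, at 124 and 43.8 CPM against 184 to 329 CPM. Cd300lb was also called at -0.97 with no filter on low counts. Cd300lb had 1.55, 0.859 and 0.999 times the counts of Cd300a in the wild type and 0.213 and 0.101 times in the mutant, ratios that the scaling of libraries does not touch.

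Cd300c, the least abundant member by counts, had 141, 406 and 142 reads in wild-type marrow and 10 and 12 in mutant marrow. In CPM it stood at 1.89, 4.84 and 2.32 in the wild type and at 0.792 and 0.2215 in the mutant. All mutant values were below all wild-type values, with a fitted log2 fold change of -2.65 ± 0.996 SE, the widest error in the family. It ranged from -3.76 without Tet2-mutant replicate 2, where Cd300c was called, to -1.94 without replicate 3. DESeq2's Wald test also called Cd300c, at -2.66.

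Cd300lg, the endothelial member, was at 11.5, 11.01 and 13.7 CPM in wild-type marrow and at 28.1 and 16.6 CPM in the mutant, with a fitted log2 fold change of 0.89 ± 0.42 SE. It was called at 1.22 without Tet2-mutant replicate 3. With scaling to total counts its libraries overlapped, at 12.8 to 15.6 CPM against 14.9 and 20.3 CPM. Of 10 endothelial markers tested, 0 were called by edgeR in either direction (1 higher and 4 lower at an unadjusted p under 0.05, 1 and 3 in DESeq2's Wald test, 0 and 2 in limma-voom). Their median log2 fold change was -2.12, with both mutant libraries below all wild-type libraries for 5, above them for 1 and overlapping for 4. Their summed level was 56.5 to 68.1 CPM in the wild type and 54.8 to 64.8 CPM in the mutant. Most of the mutant sum was Pecam1, which leukocytes also express, and without it the sums were 36.2 to 47.2 CPM against 13.07 and 13.1 CPM. In Tet2-mutant replicate 3 Emcn and Cldn5 were at 0 counts, while Kdr was at 6.17 CPM (0.359 to 1.31 CPM in the wild type) and Cdh5 at 1.13 CPM (0.326 to 0.482 CPM). The part of endothelial RNA in the Cd300lg values was not tested.

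Of the 4 extra genes of the cluster, Cd300ld2 had 1, 5 and 1 counts in wild-type marrow and 0 in both mutant libraries, and Cd300ld3, Cd300ld4 and Cd300ld5 had 0 in all 5. A count of 0 allows up to 3 counts, or 0.0358 to 0.238 CPM depending on the library, for counting error only. These 0 values are uncertain, because at least 82.1% of all stretches of 50 bases in the transcripts of Cd300ld3, Cd300ld4 and Cd300ld5 also occur in another family gene, and reads from such stretches may not be assigned. The members were largely distinct by that measure, with 7.16% of the stretches of Cd300c2 shared (all with Cd300a), 3.89% of Cd300ld, 1.91% of Cd300lf, 1.9% of Cd300a and 0 of Cd300lb, Cd300c, Cd300e and Cd300lg.

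Levels were compared between members per length, as CPM divided by the kilobases of annotated exon (RPKM). In the wild type the order was Cd300lb at 72.1 ± 21.9 RPKM (SD, n = 3), Cd300lf at 50.6 ± 5.36, Cd300a at 39.3 ± 0.858, Cd300ld at 28.5 ± 8.16, Cd300c2 at 18.7 ± 1.11, Cd300lg at 4.41 ± 0.519, Cd300c at 2.83 ± 1.497 and Cd300e at 2.54 ± 0.629. Neighbours in that order whose libraries overlapped were Cd300lb with Cd300lf, Cd300ld with Cd300c2, Cd300lg with Cd300c and Cd300c with Cd300e. In the mutant the order was Cd300c2 at 183.9 ± 34.6 RPKM (SD, n = 2), Cd300a at 136 ± 48.4, Cd300e at 91.6 ± 37.6, Cd300lf at 82.1 ± 8.74, Cd300ld at 53.4 ± 12.3, Cd300lb at 37.8 ± 29.8, Cd300lg at 8.18 ± 2.96 and Cd300c at 0.476 ± 0.379. There the libraries overlapped between Cd300c2 and Cd300a, Cd300a and Cd300e, Cd300e and Cd300lf, and Cd300ld and Cd300lb. Cd300e thus moved from rank 8 to rank 3, and 13 of the 28 pairs of members stood in opposite order in the genotype means.

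The place of Cd300lf depends on the length used. Its exons together span 5149 bases over 7 annotated transcripts, while its longest protein-coding transcript has 1885 bases. With the longest protein-coding transcript of each gene, a choice made after the data were seen, Cd300lf ranked first in all 5 libraries (138 ± 14.6 RPKM in the wild type, 224 ± 23.9 in the mutant) and 9 of 28 pairs stood in opposite order. Cd300lb then ranked 2 in every wild-type library and 6 in both mutant libraries.

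Summed over the family, RPKM were 249, 206 and 202 in the wild type and 664 and 523 in the mutant. Cd300lb made up 38.8%, 26.5% and 32.3% of that sum in wild-type replicates 1, 2 and 3 and 8.86% and 3.20% in Tet2-mutant replicates 2 and 3. Cd300c2 went from 6.99%, 9.45% and 9.50% to 31.4% and 30.5%, and Cd300e from 0.892%, 1.58% and 1.05% to 9.80% and 22.6%. The activating members together held 60.1%, 56.5% and 53.5% in the wild type and 59.5% and 64.8% in the mutant, with overlapping libraries. Of that class Cd300lb held the largest share in each wild-type library and Cd300c2 in each mutant library. With the longest protein-coding transcript as length, the activating share was 41.1% ± 2.62 (SD, n = 3) in the wild type and 50.9% ± 2.37 (SD, n = 2) in the mutant, and the libraries did not overlap.

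**Figure D2:**
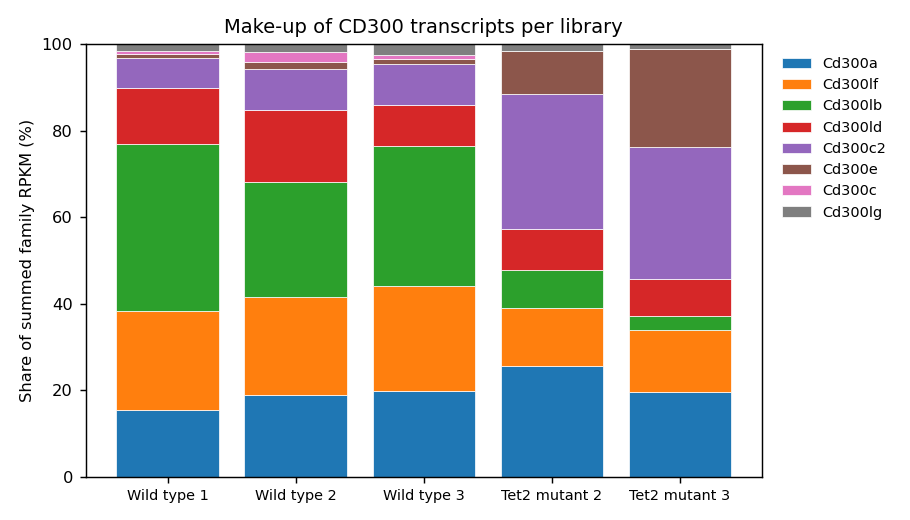
Share of the summed RPKM of the 8 CD300 genes, in percent, held by each gene in each of the 5 libraries (stacked bars that start at 0). Cd300lb, 26.5% to 38.8% in the wild type, shrinks to 8.86% and 3.20% in the mutant, where Cd300c2 and Cd300e take larger shares.

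The differences along the cluster were compared with those of its other genes. Within 200 kb of the cluster the annotation holds 18 other protein-coding genes, the 4 Cd300ld genes above and 14 of other families, of which 8 passed the filter. A single one, Kif19a, was called, beside 15.0% of all tested genes called in either direction. Kif19a, a kinesin gene, was at 0.469, 0.584 and 0.408 CPM in wild-type marrow and at 43.7 and 3.10 CPM in mutant replicates 2 and 3 (log2 fold change 5.57 ± 1.07 SE, edgeR adjusted p = 0.0209). Its call was lost without wild-type replicate 1 (adjusted p = 0.0981) or wild-type replicate 3 (adjusted p = 0.0528), and in limma-voom (adjusted p = 0.0579). Rab37, the gene around Cd300lf, had a log2 fold change of 0.14 ± 0.46 SE (adjusted p = 0.838). The 7 tested neighbours other than Kif19a did not pass, with log2 fold changes from -4.65 to 1.02. At an unadjusted p under 0.05, 2 of the 8 neighbours were higher and 1 lower. Cd300lb and Cd300c, with negative values, lie between Cd300a and Cd300ld, with positive ones.

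**Figure D3:**
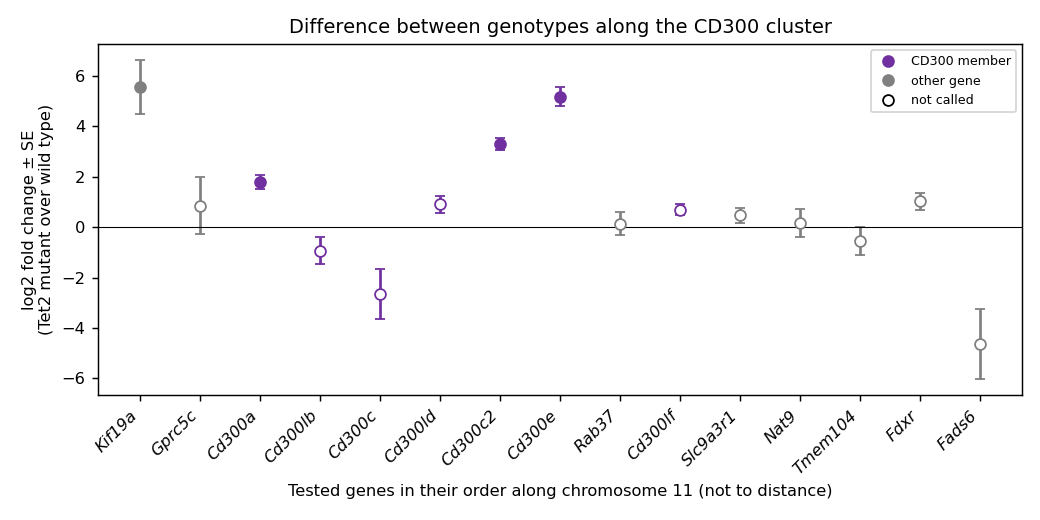
Log2 fold change of Tet2 mutant over wild type with its SE for the tested genes within 200 kb of the CD300 cluster, in chromosomal order and not to distance, with CD300 members in purple and other genes in grey. Filled points are called genes, and values of the members run from -2.65 for Cd300c to 5.18 for Cd300e within the cluster.

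The genes through which CD300 receptors signal were counted from lists chosen by function, with earlier results of these data known. The counts and p-values of these lists are therefore given as a description. Over 6 lists with 48 genes, 47 were tested, of which 10 were called higher and 1 lower, with a median log2 fold change of 0.67 (15.0% of all tested genes were called in either direction). The split was 8 and 6 with upper-quartile scaling, 6 and 8 with scaling to total counts, 5 and 0 without wild-type replicate 3, and 24 and 5 without Tet2-mutant replicate 3.

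Of the 3 adaptors of the activating receptors, 2 were higher and 0 lower. Fcer1g, the Fc receptor gamma chain, was at 276, 297 and 270.3 CPM in wild-type marrow and at 1660.0 and 912 CPM in the mutant (log2 fold change 2.19 ± 0.31 SE, edgeR adjusted p = 0.00715). Tyrobp, the gene of DAP12, was at 363, 385 and 326 CPM in wild-type marrow and at 1164 and 632 CPM in the mutant (1.33 ± 0.31 SE, adjusted p = 0.0359). The libraries did not overlap for either gene, but the Tyrobp call was lost without wild-type replicate 1 (adjusted p = 0.0663) or replicate 3 (adjusted p = 0.0591) and with scaling to total counts (adjusted p = 0.0583). The Tyrobp call was also lost with the replicate block (adjusted p = 0.054). Hcst, the gene of the adaptor DAP10, did not pass, at 18.3 to 20.8 CPM against 62.7 and 21.1 CPM (1.10 ± 0.47 SE, adjusted p = 0.13). The Hcst log2 fold change was 1.68 without Tet2-mutant replicate 3, a fit that keeps 1 mutant library.

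Downstream of the adaptors, 4 of 14 genes of activating signalling were higher and 0 lower. Lat2, a membrane scaffold phosphorylated after ITAM receptors engage, was at 55.4, 70.5 and 56.1 CPM in wild-type marrow and at 289 and 357 CPM in the mutant (2.41 ± 0.25 SE, adjusted p = 0.00225). Fyn, a Src family kinase, rose by 1.40 ± 0.24 SE on the log2 scale (adjusted p = 0.0143), and Lcp2, the gene of the scaffold SLP-76, by 1.05 ± 0.28 SE (adjusted p = 0.0487). The Fyn call was lost with the replicate block (adjusted p = 0.0703). The Lcp2 call was lost without any 1 of the 3 wild-type libraries (adjusted p = 0.0508, 0.0864 and 0.0777). It was also lost with upper-quartile scaling (adjusted p = 0.0649) and with scaling to total counts (adjusted p = 0.146). The replicate block (adjusted p = 0.1055) and a filter of 1 CPM in 3 libraries (adjusted p = 0.0563) lost it too.

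Among the 6 effectors of ITIM receptors, 1 was higher. Csk, the kinase that switches off Src kinases, rose by 1.33 ± 0.24 SE on the log2 scale (adjusted p = 0.0163). That call was lost when wild-type replicate 3 was left out (adjusted p = 0.0519) and with the replicate block (adjusted p = 0.0509). Ptpn6, the gene of SHP-1, did not pass at 799, 577 and 584 CPM against 1153 and 984 CPM (0.71 ± 0.26 SE, adjusted p = 0.0971). Both mutant libraries lay above all wild-type libraries, as for 22.9% of all tested genes. With scaling to total counts the Ptpn6 log2 fold change was 0.18 (adjusted p = 0.587). Ptpn11, the gene of SHP-2, was at 19.9 to 21.7 CPM in wild-type marrow and at 50.4 and 14.9 CPM in the mutant libraries, which lay on opposite sides of it (0.65 ± 0.51 SE, adjusted p = 0.362). Its log2 fold change was 1.27 without Tet2-mutant replicate 3 and -0.48 without replicate 2, fits that each keep 1 mutant library. Inpp5d, the gene of the lipid phosphatase SHIP-1, had a value of 0.25 ± 0.32 SE (adjusted p = 0.58).

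Of the 3 receptors that CD300 proteins are known to work beside, 0 passed. Il4ra, a chain of the interleukin-4 receptor, and Cd14, a co-receptor for lipopolysaccharide, had log2 fold changes of 1.09 ± 0.36 and 0.995 ± 0.34 SE (adjusted p = 0.0762 and 0.0805). Without Tet2-mutant replicate 3, a fit that keeps 1 mutant library, their values were 1.48 and 1.32. Both genes passed with no filter on low counts (adjusted p = 0.0239 and 0.0287). The third was Tlr4, the lipopolysaccharide receptor that works with Cd14, at 20.9 to 29.5 CPM in the wild type and 49.0 and 13.03 CPM in the mutant, on either side of it (0.27 ± 0.55 SE, adjusted p = 0.734). Tlr4 had opposite signs with a mutant library left out, at -0.98 without replicate 2 and 0.93 without replicate 3. In edgeR, at an unadjusted p under 0.05, 2 of the 3 genes passed, and DESeq2's Wald test and limma-voom each called 0.

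The structural relatives went in both directions. Of 7 tested receptors of the TREM family and related genes, Treml4 was higher and Treml2 lower. Treml4, a receptor of monocytes and macrophages that pairs with DAP12, was at 17.1, 13.5 and 13.2 CPM in wild-type marrow and at 190.1 and 345 CPM in the mutant (4.20 ± 0.34 SE, adjusted p = 0.00105). Like Cd300e it was higher in Tet2-mutant replicate 3 than in replicate 2, and it is also in the list of non-classical monocyte markers used here. Treml2 was at 24.8, 21.2 and 22.6 CPM in wild-type marrow and at 6.02 and 3.86 CPM in the mutant (-2.22 ± 0.45 SE, adjusted p = 0.0256). It dropped out when any of wild-type replicates 1, 2 and 3 was left out (adjusted p = 0.119, 0.124 and 0.127). It also dropped out with the replicate block (adjusted p = 0.219).

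On the side of the lipid ligands, 2 of 14 genes of lipid exposure and sphingolipid turnover were higher and 0 lower. Over all tested genes 10.6% were called higher and 4.43% lower. The list went in both directions, with a median log2 fold change of 0.11. At an unadjusted p under 0.05 in edgeR 4 were higher and 3 lower. DESeq2's Wald test called 3 higher and 3 lower, and scaling to total counts 1 and 4. Asah1, the acid ceramidase that breaks down ceramide, rose by 1.63 ± 0.28 SE on the log2 scale (adjusted p = 0.0156), and Plscr1, a scramblase-family gene also induced by interferon, by 1.34 ± 0.24 SE (adjusted p = 0.0167). The Plscr1 call was lost without wild-type replicate 1 or 3 (adjusted p = 0.0655 and 0.0543) and with scaling to total counts (adjusted p = 0.0528). It was also lost with the replicate block (adjusted p = 0.058).

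**Figure D4:**
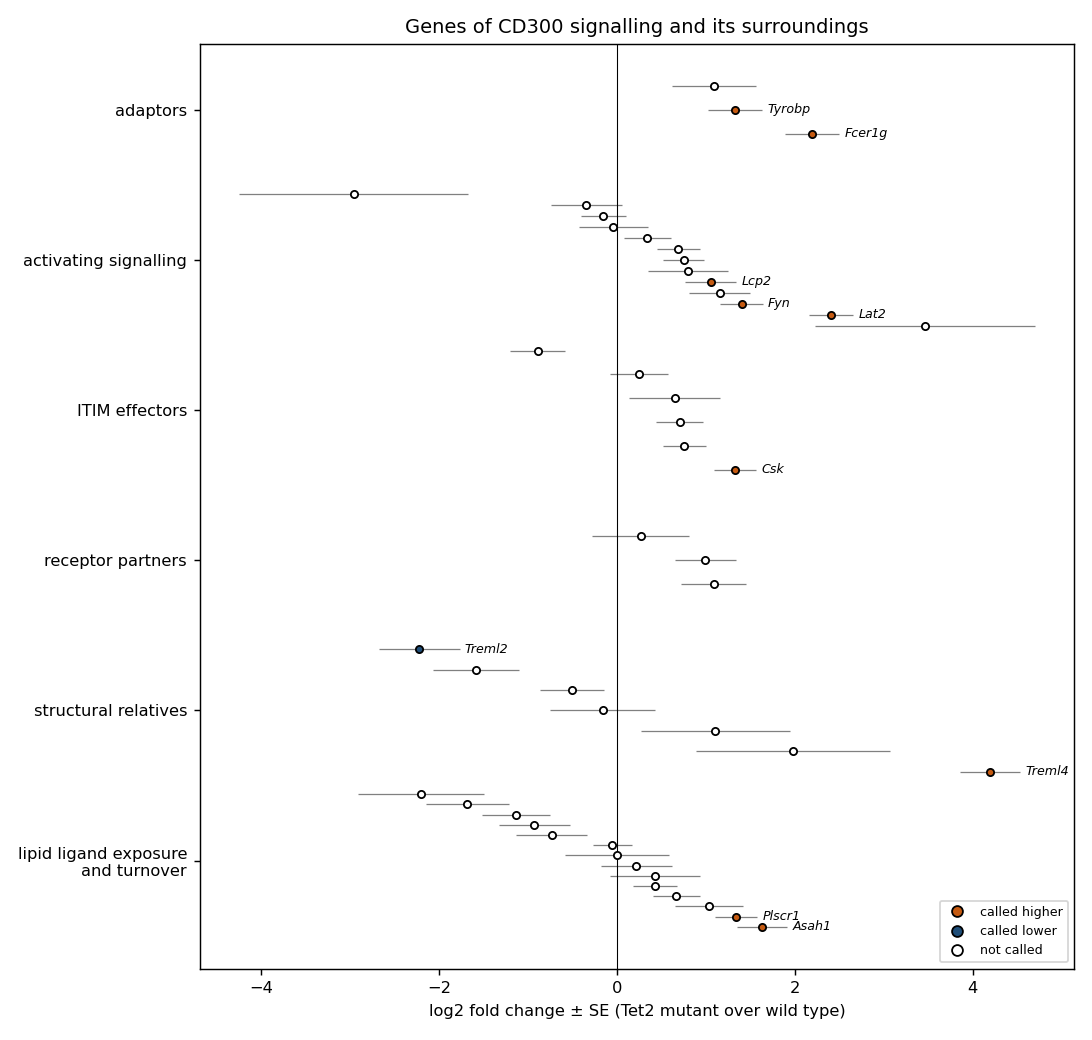
Log2 fold change of Tet2 mutant over wild type with its SE for 46 of the 47 tested genes of 6 lists around CD300 signalling. Orange points were called higher, the blue point (Treml2) lower and white points were not called, and the called adaptors are Fcer1g at 2.19 and Tyrobp at 1.33.

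The genes nearest in pattern to each member were found by the root mean square difference of log2 CPM, centred on the gene's mean, over the 5 libraries and among 8605 or 8606 genes of at least 10 CPM on average. With 5 libraries in 2 genotypes this is a description of profile shape. Nearest to Cd300lb was Cd33, with a difference of 0.0479 and levels of 284, 157 and 177 CPM in the wild type and 171 and 45.9 CPM in the mutant, followed by Ppp1r3d (0.112) and Plcl2 (0.118). Cd300a lay nearest to Il15ra (0.0396), Fibp (0.0845) and Nfkb1 (0.0917), and Cd300c2 to H2-DMa (0.0533), Igf1 (0.0949) and Cd302 (0.135). Cd300e had no close match, with Igkv5-48 at 0.23, Slamf9 at 0.246 and Ly6a at 0.298. Cd300lf lay nearest to Rabggta (0.0296), Colgalt1 (0.0349) and Cpsf3 (0.0437), Cd300ld to Stambpl1 (0.0758), Dctn5 (0.158) and Pts (0.16), and Cd300lg to Ssbp4 (0.0433), Mboat1 (0.0519) and Mak16 (0.0539). Cd300c, with few reads, was nearest to Mns1 (0.199), Supt16 (0.316) and Clec4d (0.33).

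Markers of several cell types differed between the genotypes, to be read beside the 10.6% of all tested genes called higher and 4.43% called lower. Of 10 classical monocyte markers 2 were higher, Csf1r and Ly86, with the sums given above. Of 10 non-classical monocyte markers 6 were higher and 0 lower, with a summed level of 214.5 to 350.3 CPM in the wild type and 911 and 1234 CPM in mutant replicates 2 and 3. Of 10 macrophage markers all 10 were higher, at 359 to 464 CPM against 5630 and 4243 CPM. Of 10 conventional dendritic cell markers 5 were higher, at 97.6 to 135.0 CPM against 759 and 853 CPM. Of 12 neutrophil markers 1 was lower and 0 higher, at 41350 to 52710 CPM in the wild type against 51050 and 23020 CPM in the mutant. Of 10 mast cell and basophil markers 8 were tested and 1 was lower, at 574 to 715 CPM against 480 and 336 CPM, with Mcpt4 at 0 counts in all 5 libraries and Tpsb2 at 0 in both mutant libraries. T and NK cell markers were higher for 5 of 12 (316 to 382 CPM against 1406 and 1250 CPM), and B cell and plasma cell markers for 3 of 10 (558 to 1759 CPM against 2758 and 10490 CPM). The higher T and NK cell markers were the T cell genes Cd3e, Cd3g, Trac, Trbc2 and Lck. The NK cell genes Klrb1c and Ncr1 had log2 fold changes of -2.24 ± 0.80 and -0.93 ± 0.94 SE, neither called. Gzma and Nkg7 had values of 1.76 ± 0.97 and 0.59 ± 0.26 SE, also not called. Of 9 erythroid markers 1 was lower (6085 to 16200 CPM against 13940 and 2047 CPM), and of 10 plasmacytoid dendritic cell markers 1 was higher (406 to 483 CPM against 705 and 836 CPM). That gene was Bst2, and Irf8 held the largest part of the plasmacytoid sum in every library. Both mutant libraries lay above the wild type for Bst2 and Irf8 and below it for Siglech and Cox6a2, and the other markers overlapped. Siglech was at 25.0 to 33.5 CPM against 8.64 and 1.16 CPM (log2 fold change -2.61 ± 0.82 SE, not called). The part of these cell types in the CD300 differences was not tested.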

How the data were processed

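Per the labels' protocols RNA was extracted with an RNeasy kit and libraries were made with a SMARTer mRNA kit. Each library has a deposited file of raw counts per gene from the authors. The submitters' processing notes name Trimmomatic, STAR and mm10. The sources used here do not give versions, the counter, the annotation or the strand setting.

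Counts were filtered with filterByExpr and scaled by TMM in edgeR 4.0.16 (R 4.3.3), and CPM use TMM-adjusted library sizes. Genotypes were compared by the quasi-likelihood F-test without a replicate term. P-values were adjusted by Benjamini-Hochberg over 17062 genes, and a gene was called where the adjusted value was under 0.05. Its SE is the log2 fold change over the square root of F. limma 3.58.1 and DESeq2 1.42.0 gave alternatives. The fit was tested on simulated data. Lengths and positions come from GENCODE M21 (16673 tested symbols matched) and promoters from RefSeq. The log2 CPM used for correlations and profile differences had a prior count of 2.

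Members and lists were chosen with earlier results of these data known. Named genes are the members, other Cd300 genes, up to 4 called genes per list with the smallest p (or 2 where none passed), the adaptors, Ptpn6, Ptpn11, Inpp5d, called neighbours, the 3 genes nearest each member and markers at 0. Tlr4, Rab37, Pecam1, Kdr, Cdh5, Csf1r and Ly86 were added after their values were seen, and 1 called signalling gene, counted in its list, is not reported here. Amplified reads are not independent molecules, so errors cover counting and the spread between libraries only.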

Additional observations from a re-analysis of the deposited data

How the results depend on the processing

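There were 13 alternative fits (other scalings, filters and tools, a replicate block and each library left out in turn). Counts of members describe a family chosen with this contrast known and say nothing of stability. Members called higher numbered 3, and 3 to 6 with a library left out, the 6 without Tet2-mutant replicate 3, where 21.0% of all genes were called higher and 18.4% lower. Over all genes the share called ran from 3.81% to 26.5% higher and from 0.0371% to 32.2% lower with a library left out. Members called lower numbered 0, 1 with no filter (Cd300lb), 1 with DESeq2's Wald test (Cd300c) and 0 to 2 with a library left out. Signalling genes called higher numbered 10, 6 with total counts, 4 with the replicate block and 5 to 24 with a library left out. Signalling genes called lower numbered 1, 6 with upper-quartile scaling, 8 with total counts, 4 with no filter, 2 with a filter of 1 CPM in 3 libraries, 6 with DESeq2's Wald test, 3 with limma-voom and 0 to 11 with a library left out. Neighbours called higher numbered 1, 2 with no filter, 0 with the 1 CPM filter, 2 with DESeq2's Wald test, 0 with limma-voom and 0 to 5 with a library left out. Neighbours called lower numbered 0, 1 with upper-quartile scaling, 1 with total counts, 1 with no filter, 1 with DESeq2's Wald test and 0 to 3 with a library left out. The cause of these moves was not tested. Among genes not called, Tlr4 changed sign with upper-quartile scaling (-0.13), total counts (-0.34), limma-voom (-0.39) and without Tet2-mutant replicate 2 (-0.98), and Rab37 in the same settings (-0.22, -0.44, -0.18 and -0.58), and without replicate 3 they stood at 0.93 and 0.61. Inpp5d changed sign with upper-quartile scaling (-0.057) and total counts (-0.29), and Ptpn11, which ran from -0.48 without Tet2-mutant replicate 2 to 1.27 without replicate 3. Pairs of members in opposite order numbered 12 to 14 with a library left out. The replicate numbers were not taken as pairing, since the labels do not state that they pair samples. Deviations from the genotype means correlated at -0.027 (number 2) and -0.024 (number 3). With 2 mutant libraries, whose deviations mirror each other, these values cannot decide the question. The block lowered the calls over all genes from 1801 higher and 755 lower to 752 and 232. That drop cannot decide it either, since a block leaves less information on the spread between libraries. Where 1 mutant library was left, its spread was taken to be that of the wild type. Tet2-mutant replicate 2, with 17459808 counts, limits what can be seen of low genes such as Cd300c. Symbols with any count numbered 24532, 25612 and 26207 in the wild type and 18047 and 17944 in mutant replicates 2 and 3. Mutant replicate 3 thus showed the fewest symbols although it held 60508381 counts. The cause of the lower numbers in the mutant was not tested.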
